A study of Mus musculus with 20 samples.

Results

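Primary osteosarcomas of mice heterozygous for p53R245W (3 tumours) were compared with those of mice heterozygous for p53R270H (5 tumours), gene by gene, in bulk RNA sequencing. The 8 tumours were taken by the allele in their labels and are 8 of the 20 samples of the series, which also holds 4 tumours from p53+/- mice, 6 from p53R172H/+ mice and 2 cell line samples. In all 18 tumours the strain is given as a mix of C57BL/6J and 129S/SvJae, and every mouse also carried a wild-type copy of Trp53 in the germline (in p53+/- mice, beside a lost allele). Age, sex, tumour site and loss of the wild-type allele are not stated for the tumours. All tumours were snap frozen at necropsy and crushed, so each value averages tumour cells with stroma, blood and bone marrow. Fewer cells of a type and less RNA per cell cannot be told apart in such material.

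p53, the product of Trp53, is a tetrameric transcription factor that switches on genes of cell cycle arrest and apoptosis in response to stress. Both alleles change an arginine of the DNA-binding domain that touches the DNA, and they are usually called contact mutants. They correspond to the human hotspot mutations R248W and R273H. Missense p53 often accumulates in tumours and binds other transcription factors, and osteosarcoma, a bone-forming tumour, is a hallmark cancer of p53 deficiency in mice and humans.

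The sample titles differ in style between the groups. Titles of all 3 R245W tumours name the allele and carry a serial number, whereas those of all 5 R270H tumours share a different code (RNAm726) and carry none. What the code stands for is not stated, and it cannot be told apart from the genotype in these 8 libraries. R245W libraries held 21964474 to 23956389 counts and R270H libraries 20650178 to 26757406. The Pearson correlation of log2 CPM between libraries was 0.932 to 0.962 among R245W tumours and 0.933 to 0.964 among R270H tumours. Genes of the bone lineage were abundant in both groups: the summed level of 18 osteoblast and osteocyte genes was 41474 to 122568 CPM in R245W and 51704 to 159447 CPM in R270H tumours. CPM here means counts per 1000000 counts of the library, after TMM scaling between libraries.

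Of 20616 genes tested, 255 (1.24%) differed at an adjusted p under 0.05 (edgeR quasi-likelihood test, Benjamini-Hochberg). Expression was higher in R245W tumours for 156 genes (0.757% of those tested) and lower for 99 (0.48%). At an unadjusted p under 0.05 the test gave 3791 genes. The libraries of the groups did not overlap in 253 of the 255 called genes and in 2775 (13.5%) of all genes tested. Over all genes the median log2 fold was -0.02, with 48.5% above 0. Calls included 87 protein-coding genes higher in R245W tumours (median log2 fold 1.15) and 77 lower (median -1.13). The call count was 59 without R245W tumour 1, 127 without R245W tumour 2 and 48 without R245W tumour 3. It was 96, 90, 61 and 144 without R270H tumours 1, 2, 3 and 5. Without p53+/- tumours 2 and 3 it was 411 and 384. The p53+/- tumours are in neither group and entered through the shared estimate of spread, the filter on low counts and the scaling. With title style as a covariate, which rests on the 4 p53+/- tumours alone, 8 genes were called and 253 of the 255 kept their sign. Of the called genes picked by the naming rule given below, 29 lost their call under that covariate with the same sign. These include Pigt, Ell, Atn1, Rpl34, Ppib and Rhbdl2. Rn7s6 reversed its sign, and only Ndufs5 kept its call (log2 fold -4.14, edgeR adjusted p 0.00461). Several of the 29 shrank: the log2 fold of S100a11 went from 2.06 to 0.21 and that of Vkorc1 from -2.74 to -0.45. Snora69 went from -4.27 to -1.09 and Rnu12 from -2.97 to -1.10.

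**Figure D1:**
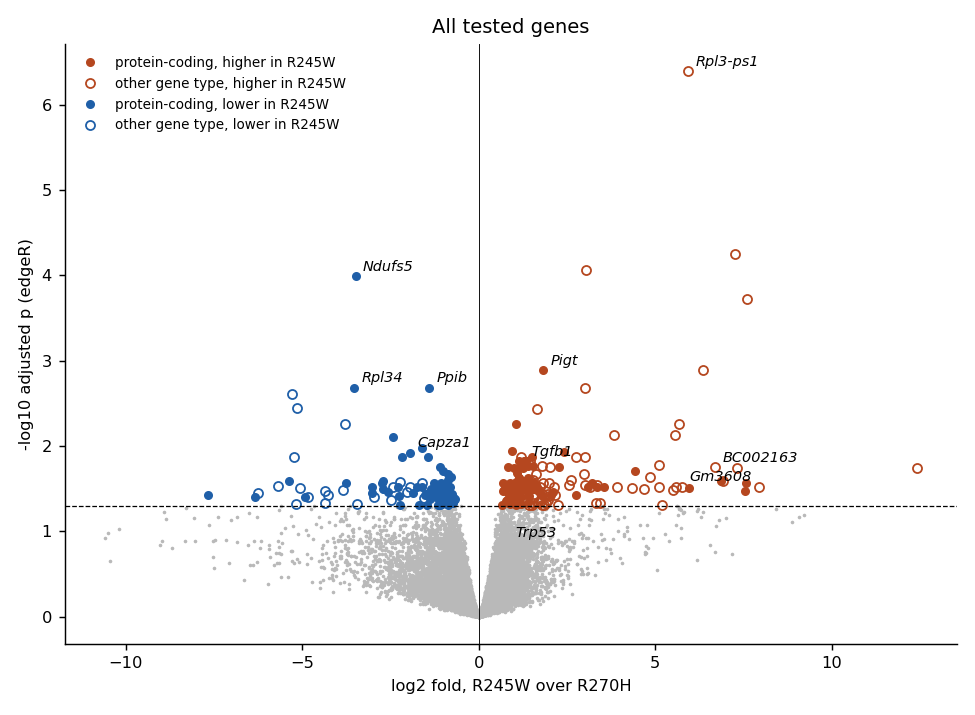
Each dot is 1 of 20616 genes: the horizontal axis is the log2 fold of R245W over R270H tumours and the vertical axis is -log10 of the adjusted p from edgeR, with the dashed line at 0.05. Filled coloured dots are called protein-coding genes and open ones are called genes of other types; the latter reach the largest folds to the right, where Rpl3-ps1 has the lowest adjusted p.

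The groups differed in which member of a pair of near-identical sequences was counted. Ndufs5 encodes an accessory subunit of respiratory complex I, and BC002163 on chromosome 16 (42955631 to 42955949, GRCm38, forward strand) is annotated as a processed pseudogene, an intronless copy made by reverse transcription. Rpl34 encodes a protein of the large ribosomal subunit, and Rpl34-ps1 on chromosome 6 (71124610 to 71124963, forward strand) is a processed pseudogene of it. Both copies span the coding sequence of their gene with 2 differences each. The stretches around these differences are printed because reads that miss the differing bases match both members of a pair: 1 stretch holds both differences for Ndufs5, and Rpl34 has 1 stretch for each. Substitutions are counted from 1 at the first coding base, with the base of the gene first. They are T81C and A105G for BC002163 and T132C and C318G for Rpl34-ps1. Capitals mark the bases that differ, and sequences are from GENCODE M21 transcripts, with the copies at chr16:42955693-42955752, chr6:71124711-71124770 and chr6:71124897-71124956.
Ndufs5: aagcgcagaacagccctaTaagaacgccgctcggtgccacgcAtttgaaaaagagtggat
BC002163: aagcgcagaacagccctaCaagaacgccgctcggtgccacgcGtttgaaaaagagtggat
Rpl34: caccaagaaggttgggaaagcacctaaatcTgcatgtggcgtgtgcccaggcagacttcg
Rpl34-ps1: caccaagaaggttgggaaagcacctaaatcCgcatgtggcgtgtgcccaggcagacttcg
Rpl34, second stretch: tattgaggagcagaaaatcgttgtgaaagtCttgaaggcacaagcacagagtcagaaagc
Rpl34-ps1, second stretch: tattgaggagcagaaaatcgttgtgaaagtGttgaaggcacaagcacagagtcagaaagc

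Ndufs5 was counted at 0.662, 1.04 and 1.64 CPM in the 3 R245W tumours and at 15.2, 12.2, 13.4, 12.1 and 9.96 CPM in the 5 R270H tumours. Every R245W library lay far below every R270H library (log2 fold -3.49 ± 0.361 SE, edgeR adjusted p 0.000101). BC002163 had the opposite pattern, with 21.6, 21.9 and 18.04 CPM in R245W tumours and 0 to 0.296 CPM in R270H tumours (log2 fold 6.69, edgeR adjusted p 0.0177). Counts at the copy made up 97.0, 95.5 and 91.7% of the counts of gene plus copy in R245W tumours, and at most 2.16% in R270H tumours. Added together, gene and copy came to 21.6 ± 1.73 CPM (SD, n = 3) in R245W and 12.8 ± 1.97 CPM (SD, n = 5) in R270H tumours. The sum therefore lay in the opposite direction to Ndufs5 alone, and the groups did not overlap in it either.

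Rpl34 was at 11.2, 34.8 and 19.6 CPM in R245W tumours and at 286, 161, 264, 288 and 256 CPM in R270H tumours (log2 fold -3.52 ± 0.481 SE, edgeR adjusted p 0.00208). Rpl34-ps1 took 65.4, 62.7 and 54.9% of the counts of the pair in R245W tumours and at most 0.287% in R270H tumours. Its own log2 fold of 5.81 did not pass the threshold (edgeR adjusted p 0.06). Summed over Rpl34 and its 5 copies of at least 95% identity, the level was 58.0 ± 33.8 CPM (SD, n = 3) against 252 ± 52.3 CPM (SD, n = 5). The log2 ratio of these means was -2.12, smaller in size than that of Rpl34 alone, and the groups still did not overlap.

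Capza1, which encodes a subunit of the actin-capping protein, showed the same split with the copy Gm3608 at 99.5% identity. Its log2 fold was -1.94 and that of Gm3608 5.76, both called. The copy held 62.2, 61.3 and 60.1% of the counts of the pair in R245W tumours and at most 1.21% in R270H tumours. The sum of Capza1 and its 2 copies was 53.5 ± 9.95 CPM (SD, n = 3) against 79.96 ± 11.6 CPM (SD, n = 5), a log2 ratio of -0.58.

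The other tumours of the series were split in these shares within a genotype. Copy shares for Capza1 were 26.6, 24.2, 0.878 and 53.02% in the 4 p53+/- tumours and ran from 0.388 to 27.3% in the 6 R172H tumours. For Ndufs5, the fourth p53+/- tumour stood at 61.6% and the other 9 tumours of both genotypes at 0.383 to 4.23%. That tumour has no serial number in its title. Nor has the third p53+/- tumour, with shares of 1.62% for Ndufs5 and 0.878% for Capza1. The first 2 p53+/- tumours and all R172H tumours have one. These 3 pairs were chosen after their values were seen. Of 164 called protein-coding genes, 18 had at least 1 pseudogene copy in the table at 95% identity or more. In 2 of them, Ndufs5 and Capza1, a copy was called in the opposite direction. Copies annotated as protein-coding were not searched, so these counts may miss such pairs. Hmgn2 (log2 fold -1.24) and Gm10282 (2.74), both protein-coding and called in opposite directions, matched the same 5 pseudogenes.

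**Figure D2:**
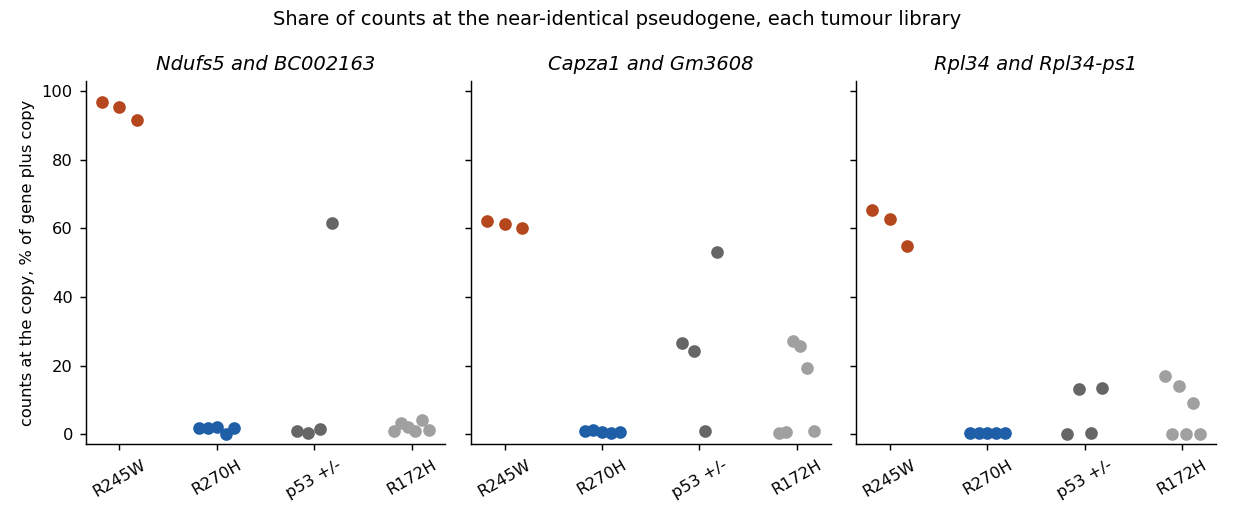
Each dot is 1 tumour library and the vertical axis is the percentage of the counts of a gene and its near-identical pseudogene that fell on the pseudogene, for Ndufs5, Capza1 and Rpl34. R245W tumours lie between 54.9 and 97.0% in the 3 panels and R270H tumours at or below 2.16%, with p53+/- and R172H tumours spread between 0.0410 and 61.6%.

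Pseudogenes as a class were called mostly in 1 direction. Of 34 called, 30 were higher in R245W tumours, and among processed pseudogenes the count was 28 higher and 2 lower of 940 tested (3.19% called, against 1.09% of protein-coding genes). Rpl3-ps1, a copy of the ribosomal protein gene Rpl3 at 99.8% identity, averaged 93.0 CPM in R245W and 1.51 CPM in R270H tumours and had the lowest adjusted p of all (4.04e-07, edgeR). Rpl3 itself averaged 194 and 257 CPM and was not called (edgeR adjusted p 0.50). Gm6969, a copy of Cox7a2l at 97.7% identity, averaged 59.7 against 0.38 CPM, while Cox7a2l averaged 110 CPM in both groups. Rps3a3, a copy of Rps3a1 that lies inside Pde4d, was at 87.5, 149 and 95.5 CPM in R245W tumours and 0.575 to 0.824 CPM in R270H tumours (log2 fold 7.33). Its call was lost without R270H tumour 3 and by limma voom (adjusted p 0.0764), as was that of Hist1h2al by limma voom (0.173). Hist1h2al had no count in any R270H tumour and 17.97, 50.2 and 17.2 CPM in R245W tumours, at least 1059-fold higher against a floor of 3 counts over the group. It is annotated as a processed pseudogene here and matches the histone gene Hist2h2aa2 at 99.4%. Both Rps3a3 and Hist1h2al varied widely within the other genotypes. Rps3a3 was at 1.68 to 211 CPM in p53+/- and 0.515 to 64.1 CPM in R172H tumours. Hist1h2al was at 0.373 to 39.3 CPM in p53+/- and 0 to 24.2 CPM in R172H tumours. In all, 26 of the 30 pseudogenes higher in R245W tumours had a protein-coding relative of at least 90% identity. Of the 22 with a tested relative, the relatives' median log2 fold was -0.46, and 2 passed the threshold, both lower. How reads that fit several places were counted is not given in the sources used here, so the values of such pairs are uncertain one by one.

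Among protein-coding genes higher in R245W tumours, Pigt had the lowest adjusted p. It encodes a subunit of the transamidase that attaches GPI anchors to proteins. It was at 176, 128 and 193 CPM in R245W tumours and at 40.1, 33.4, 40.3, 51.8 and 68.5 CPM in R270H tumours (log2 fold 1.82 ± 0.234 SE, edgeR adjusted p 0.00129). The lowest R245W tumour was well above the highest R270H tumour. Ell, an RNA polymerase II elongation factor, was at 20.01, 24.6 and 28.5 CPM against 10.4, 11.2, 11.7, 11.8 and 13.6 CPM (log2 fold 1.05 ± 0.16 SE, edgeR adjusted p 0.00553). Atn1, which encodes the transcriptional co-repressor atrophin 1, was at 8.83, 6.07 and 9.68 CPM against 0.972 to 2.04 CPM (log2 fold 2.42, edgeR adjusted p 0.0117). Atn1 overlaps the gene model Gm45234 on the same strand (log2 fold 0.77, not called). Pigt, Ell and Atn1 were called in all 18 fits that left out 1 library. None of them was called with title style as a covariate (edgeR adjusted p 0.365, 0.327 and 0.532).

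Fam234a was at 90.7, 90.3 and 119 CPM in R245W tumours and 47.5 to 55.8 CPM in R270H tumours (log2 fold 0.96, edgeR adjusted p 0.0114), a call lost without R245W tumour 3. S100a11, a calcium-binding protein gene, was at 49.2, 119 and 36.3 CPM against 10.7 to 19.96 CPM (log2 fold 2.06). Chst12, a chondroitin sulfotransferase gene, was at 37.3, 60.0 and 68.1 CPM against 10.3 to 22.5 CPM (log2 fold 1.83). Calls of S100a11 and Chst12 were lost when any R245W tumour was left out, without R270H tumours 1, 2, 3 or 4, and without R172H tumour 1. The call of S100a11 was also lost without R270H tumour 5, and that of Chst12 without R172H tumours 3 or 4. With no filter on low counts the adjusted p was 0.0507 for S100a11 and 0.0527 for Chst12.

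In several others the R245W tumours differed widely among themselves. The replication-dependent histone gene Hist4h4 was at 86.1, 603 and 116 CPM in R245W and 10.2 to 54.7 CPM in R270H tumours (log2 fold 3.08), and without R245W tumour 2 or R270H tumours 1, 2, 3 or 4 it was not called. Hmga1b, a retrogene for an HMGA1-type chromatin protein, was at 1.63, 7.58 and 3.90 CPM against 0.044 to 0.296 CPM (log2 fold 4.41) and was lost without R245W tumours 2 or 3. Prss41, a serine protease gene, was at 0.662, 9.93 and 0.246 CPM, and its 3 counts over all R270H tumours give a ratio of 130 (exact Poisson 95% interval 43.9 to 634, counting error only). Without R245W tumour 2, R270H tumours 1, 2 or 3, or p53+/- tumour 4, it was not called. Gdpd3, a lysophospholipase D gene, was at 3.22, 34.7 and 26.9 CPM against 1.35 to 2.91 CPM (log2 fold 3.35). Its call was lost without R245W tumours 2 or 3 and without R270H tumours 1, 2, 3 or 5. By limma voom Gdpd3 and Hist4h4 were not called (adjusted p 0.0723 and 0.0685), nor was Hist4h4 with the 8 libraries alone (0.0786). Masp2, a protease gene of the lectin complement pathway, was at 3.89, 1.69 and 1.85 CPM against 0.32 to 0.885 CPM and was lost without R245W tumour 1. It overlaps Tardbp on the other strand, which was called lower (log2 fold -0.72), and with strand use not stated their reads cannot be told apart.

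Among protein-coding genes lower in R245W tumours, beyond Ndufs5 and Rpl34, Ppib had the lowest adjusted p. It encodes cyclophilin B, a prolyl isomerase of the endoplasmic reticulum that acts on procollagen. It was at 63.8, 50.2 and 49.6 CPM in R245W tumours and at 172.5, 118, 152, 142 and 137 CPM in R270H tumours (log2 fold -1.40 ± 0.189 SE, edgeR adjusted p 0.00208). Rhbdl2, a rhomboid intramembrane protease gene, was at 4.86, 3.20 and 7.83 CPM against 18.8, 36.2, 30.6, 29.8 and 26.3 CPM (log2 fold -2.42 ± 0.384 SE, edgeR adjusted p 0.00776). It lies beside Ndufs5 on chromosome 4, and its further neighbour, the pseudogene Gm12904, was also called lower. Ppib and Rhbdl2 were called in all 18 fits that left out 1 library, but not with title style as a covariate (edgeR adjusted p 0.374 and 0.0757). The groups did not overlap in either gene, which was a condition for naming them.

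**Figure D3:**
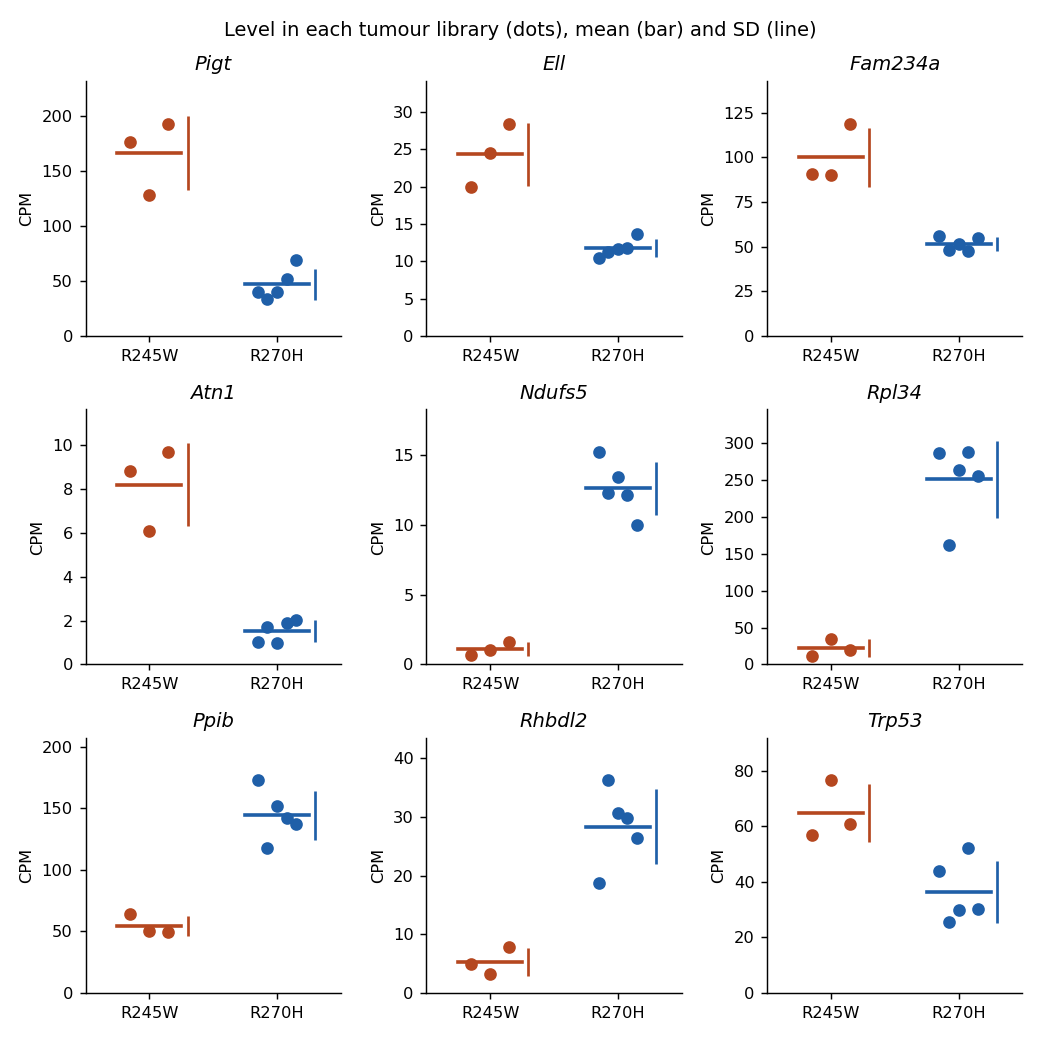
Levels of 9 genes in CPM after TMM scaling, with 1 dot per tumour library (3 R245W, 5 R270H), a bar at the group mean and a line for 1 SD. The groups do not overlap in any panel, which was a condition for naming all but Trp53 and holds for 13.5% of all genes tested. The first 4 genes and Trp53 are higher in R245W tumours, and Ndufs5, Rpl34, Ppib and Rhbdl2 are lower. Trp53 is short of the threshold (edgeR adjusted p 0.136).

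Tlx1, a homeobox gene of spleen development, was at 0.221, 0 and 0.082 CPM in R245W tumours and at 4.03, 1.54, 9.17, 7.12 and 0.487 CPM in R270H tumours (log2 fold -5.39). Uchl1, a ubiquitin hydrolase of neurons and of some tumours, was at 1.28, 1.51 and 1.80 CPM against 7.61 to 19.4 CPM (log2 fold -3.02). Tnfrsf9, the co-stimulatory receptor 4-1BB, was at 1.46, 3.39 and 1.56 CPM against 7.35 to 33.2 CPM (log2 fold -3.02). Vkorc1, the vitamin K epoxide reductase that recycles the cofactor needed for osteocalcin, was at 1.06, 1.08 and 0.615 CPM against 3.52 to 8.03 CPM (log2 fold -2.74). Eps8l1, an actin regulator gene, was at 0.353, 0.141 and 0.615 CPM against 3.78 to 7.70 CPM (log2 fold -3.76). Ly6d, a surface protein of keratinocytes and lymphoid progenitors, was at 0.132 to 0.246 CPM against 0.352 to 19.0 CPM (log2 fold -4.91), the highest in R270H tumour 4. Tlx1, Uchl1, Eps8l1 and Tnfrsf9 overlap genes on the other strand, and Vkorc1 another gene model on its own. All 6 genes lost their call without R245W tumour 1 or R270H tumour 3, and all but Tnfrsf9 without R245W tumour 2. Leaving out R245W tumour 3 ended all 6 calls. R270H tumour 1 ended those of Uchl1, Tnfrsf9, Vkorc1 and Ly6d, R270H tumours 2 or 4 that of Uchl1, and R172H tumours 1, 2 or 4 that of Ly6d. With the 8 libraries alone Tlx1, Ly6d and Tnfrsf9 were not called (edgeR adjusted p 0.0763, 0.119 and 0.0518), nor were Tlx1 and Ly6d by limma voom (0.076 and 0.122). Ly6d was not called with no filter on low counts (0.0527).

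Small RNA genes were also among the calls, and counts at such genes do not separate the small RNA from pieces of a host transcript. Of 109 microRNA genes tested, 6 were higher and 2 lower (7.34% called), and of 175 snoRNA genes 6 were lower and none higher (3.43% called), against 1.24% of all genes. Mature forms of the members at the top of each direction follow, from RefSeq (GRCm38.p6), with the seed (bases 2 to 8) in capitals.
miR-5125: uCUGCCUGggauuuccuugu
miR-703: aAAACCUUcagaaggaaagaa
Mir5125 was at 11.0, 8.75 and 19.5 CPM in R245W tumours and 0.93 to 2.19 CPM in R270H tumours (log2 fold 3.01 ± 0.409 SE, edgeR adjusted p 0.00208). It lies within Srrm2 on the same strand, and Srrm2, which encodes a protein of nuclear speckles, was called higher with a log2 fold of 1.07. Mir703 lies within Cfap299 on the other strand. It had 3 counts in all R245W tumours together and 0.528 to 2.44 CPM in R270H tumours, a ratio of 39.5 in favour of R270H (exact Poisson 95% interval 13.3 to 193, counting error only). Their seeds differ, so the 2 form no seed family.

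Calls of the other short, non-polyadenylated RNAs named here were of genes lower in R245W tumours, though the list of such genes went both ways. Of 140 snRNA genes tested, 1 was called higher and 2 lower (2.14% called). Rnu12, the U12 RNA of the minor spliceosome, was at 12.8, 52.4 and 23.4 CPM against 208, 204, 332.2, 199.6 and 213 CPM (log2 fold -2.97). Snora69, a guide RNA for pseudouridylation inside Rpl39, was at 0.707, 3.58 and 1.85 CPM against 20.5 to 87.1 CPM (log2 fold -4.27). Rn7s6 was at 0.221 to 0.287 CPM against 5.72 to 18.1 CPM (log2 fold -5.18). Rn7s6 was at 0.216 to 31.7 CPM in p53+/- tumours, and with title style as a covariate its log2 fold was 0.72 (edgeR adjusted p 0.778). Its call was lost in 15 of the 18 fits that left out 1 library: all but those without p53+/- tumours 1, 2 or 3. It was not called with no filter on low counts (edgeR adjusted p 0.0569) or by limma voom (0.0624). Calls of Rnu12 and Snora69 were each lost without R245W tumours 1 or 3 and without R270H tumours 1, 2, 3 or 5. That of Snora69 was also lost without R245W tumour 2, and that of Rnu12 without R270H tumour 4 or R172H tumours 2 or 3. Over the list of 14 tested genes of this kind 2 were called, Rnu12 and Rn7s6, both lower, and the median log2 fold was -0.80. Of the members, 9 lay below 0 and 5 above, up to Rprl3, singled out after its values were seen, at a log2 fold of 9.21 (edgeR adjusted p 0.0639), which was at 19.7, 0.376 and 98.3 CPM in R245W tumours and at most 0.183 CPM in R270H tumours. Its summed level was 23733 to 78128 CPM in R245W and 28832 to 51616 CPM in R270H tumours, so the most abundant members did not separate the groups.

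Trp53 itself was at 57.0, 76.5 and 60.8 CPM in R245W tumours and at 44.0, 25.5, 29.98, 52.1 and 30.2 CPM in R270H tumours. The groups did not overlap, as in 13.5% of all genes tested. Across all genes the difference did not pass the threshold (log2 fold 0.83 ± 0.285 SE, edgeR adjusted p 0.136). An exact two-sided permutation test of this 1 gene over the 8 libraries gave p = 0.0357, the smallest that its 56 splits allow and the value that groups without overlap must give, so it adds nothing to the levels themselves. Counts per gene do not distinguish the mutant from the wild-type allele, so these values check no label. Mdm2, the ligase that degrades p53, was at 48.7, 59.8 and 48.6 CPM against 50.8 to 93.3 CPM (log2 fold -0.43, edgeR adjusted p 0.302). Cdkn1a, the p21 cell cycle inhibitor induced by wild-type p53, was at 61.4, 105 and 92.6 CPM against 22.8 to 92.9 CPM (log2 fold 0.87, edgeR adjusted p 0.314).

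None of 28 p53-activated target genes was called, against 1.24% of all genes tested, a share at which a list of this size often holds no call. Their median log2 fold of -0.04 was close to that of all genes. In 6 of the 28 the groups did not overlap, against 13.5% of all genes tested. The death receptor genes Tnfrsf10b (log2 fold 1.60, edgeR adjusted p 0.0572) and Fas (log2 fold -1.19, edgeR adjusted p 0.12) had opposite signs. Of 22 genes reported in other work as targets of mutant p53, 1 was called. This was Kmt2d, a histone H3 lysine 4 methyltransferase gene, at 297, 396 and 440 CPM in R245W and 141, 257, 151, 188 and 209 CPM in R270H tumours (log2 fold 0.998, edgeR adjusted p 0.0367). The call was lost without any 1 of the R245W tumours and without R270H tumours 1, 3, 4 or 5. It was also lost with GC trends removed (edgeR adjusted p 0.082), with the 8 libraries alone (0.0923) and with no filter on low counts (0.0709). Tgfb1, a growth factor stored in bone matrix, was at 123, 201 and 191 CPM against 58.1, 60.1, 80.0, 74.4 and 81.5 CPM (log2 fold 1.28, edgeR adjusted p 0.0151). It was the 1 call among 18 genes of the TGF-beta response, of which 13 lay below 0, and the call was lost without R245W tumours 2 or 3. Jund, an AP-1 subunit gene, was the 1 call among 16 immediate early genes, at 15.4, 19.8 and 18.5 CPM against 4.14 to 8.20 CPM (log2 fold 1.38). It was lost without any 1 of the R245W tumours and without R270H tumours 1, 2, 3 or 5, and with no filter on low counts (edgeR adjusted p 0.0519).

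Several lists had no call but members that lay mostly to 1 side, against 48.5% of all genes above 0. As 1.24% of all genes tested were called, the lack of a call in lists of such size says little. Of 22 interferon response genes 1 lay above 0 (median log2 fold -1.02), and 9 did not overlap between groups, against 13.5% of all genes tested. Bst2, an antiviral membrane tether, was at 15.5, 13.5 and 15.1 CPM in R245W and 25.1 to 91.2 CPM in R270H tumours (log2 fold -2.08, edgeR adjusted p 0.084). Of 18 T and NK cell markers 3 lay above 0 (median -1.09), with a summed level of 60.7, 14.2 and 41.6 CPM in R245W and 54.9 to 113.1 CPM in R270H tumours. Their part in the interferon values was not tested. Of 16 fibroblast markers 1 lay above 0 (median -0.69), with a sum of 1669 to 3969 CPM against 2628 to 9047 CPM. Of 14 neutrophil markers 1 lay above 0 (median -1.26), with sums of 106, 22.3 and 264 CPM in R245W tumours. R270H tumour 5 was at 1662 CPM and the other tumours of that group at 32.8 to 194 CPM. R245W tumour 3 thus lay above all R270H tumours but tumour 5. All 8 tested keratinocyte markers lay below 0 (median -4.21), with 94.8 and 323 CPM in R270H tumours 3 and 4 and at most 12.8 CPM in the other 6 libraries. Among 26 proteasome genes 3 lay above 0, with a median of -0.35.

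On the other side, 17 of 22 DNA replication genes (median log2 fold 0.21) and 16 of 20 MYC and ribosome biogenesis genes (median 0.32) lay above 0, none of them called. R245W tumour 2 stood apart in both: the replication genes summed to 891, 1831 and 809 CPM in R245W tumours and 651 to 1243 CPM in R270H tumours. The MYC and ribosome biogenesis genes summed to 2302, 4226 and 2422 CPM against 1596 to 3540 CPM, so R245W tumours 1 and 3 lay within the R270H range in both sums. Cdt1, a replication licensing factor, was at 25.5, 40.1 and 23.7 CPM against 9.39 to 18.2 CPM (log2 fold 1.03, edgeR adjusted p 0.06). Myc was at 133, 391 and 222 CPM against 76.8, 32.2, 79.1, 167 and 58.1 CPM (log2 fold 1.59, edgeR adjusted p 0.07), so R270H tumour 4 lay above the lowest R245W tumour. Of 22 mitosis genes 7 lay above 0 and none was called. Osteoblast and osteocyte genes had a median of -0.12 with 6 of 18 above 0, and osteoclast genes one of 0.01 with 8 of 14. The sum of osteoclast genes was 944 to 10218 CPM in R245W and 604 to 12409 CPM in R270H tumours. Of 27 nuclear genes of the respiratory chain, Ndufs5 was the 1 called. Mitochondrially encoded genes had 7 of 11 above 0, none called, and mt-Nd5 came nearest (log2 fold 1.40, edgeR adjusted p 0.0592).

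**Figure D4:**
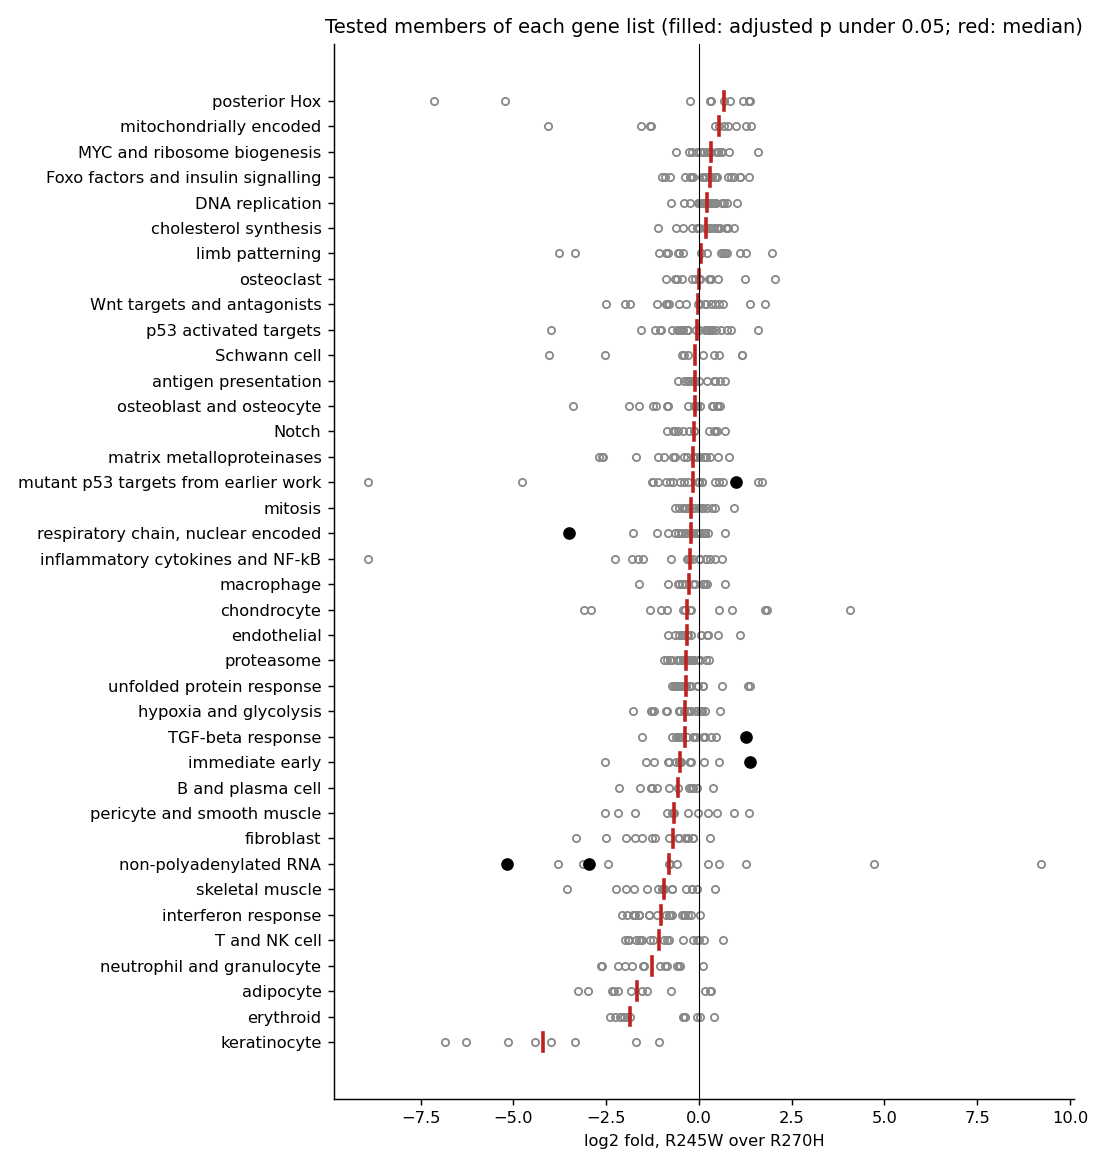
Each circle is a tested member of the list named at the left and its horizontal position is the log2 fold of R245W over R270H tumours, with called members filled and the list median in red. Medians run from -4.21 for keratinocyte markers to 0.67 for posterior Hox genes, and filled circles are few. Of 11 tested posterior Hox genes 8 lay above 0 and 3 below, with none called. Those of lowest p, Hoxa11 and Hoxa13, lay below, with log2 folds of -7.15 and -5.23 (edgeR adjusted p 0.128 and 0.235).

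GC content went with the direction of change. Protein-coding genes called higher in R245W tumours had a median transcript GC of 55.2%, those called lower 44.3%, and all 15050 tested 49.9%. Across these genes the Spearman correlation of log2 fold with GC was 0.288, and with transcript length 0.069; genes are not independent replicates. In the tenth of genes with the lowest GC (median 39.6%) 1 was called higher and 20 lower, and in the tenth with the highest (median 59.8%) 23 higher and 2 lower. The size of this gradient differed between libraries. The correlation of a gene's deviation from its mean over 18 tumours with GC was 0.012, 0.055 and 0.224 in R245W tumours. It was -0.094 to -0.327 in R270H, -0.189 to 0.266 in p53+/- and 0.008 to 0.297 in R172H tumours. R245W tumours 1 and 2 were thus near 0, and the p53+/- tumours varied widely within their genotype. With each library's GC trend removed, an alternative added after the data were seen, 221 genes were called higher and 74 lower, and 203 of the 255 calls were kept. Whether the gradient comes from tumours, RNA or libraries was not tested.

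**Figure D5:**
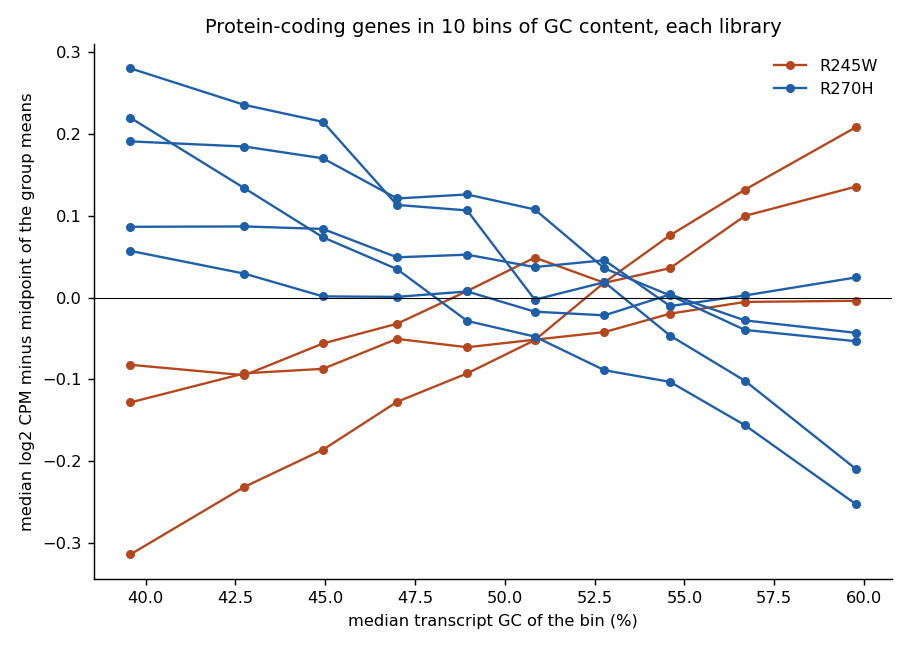
Protein-coding genes in 10 bins of equal size by transcript GC; the vertical axis is the median, over the genes of a bin, of log2 CPM minus the midpoint of the group means, with 1 line per library. Lines of the 3 R245W tumours slope upward and those of the 5 R270H tumours downward, from a bin median GC of 39.6% to one of 59.8%. With the midpoint of the groups as reference, any difference between them in GC trend gives opposite slopes, so the direction within a group cannot be read here.

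In position, calls were densest on chromosome 17, with 29 of 920 tested genes (3.15%), 23 of them higher. Between 25 and 40 Mb of it, a window chosen after the values were seen, 15 of 300 protein-coding genes were called higher and 0 lower. Of all 15050 protein-coding genes tested, 87 were called higher. On the rest of chromosome 17, 4 of 444 protein-coding genes were called higher and 4 lower. Median GC was 54.6% in the window and 50.5% on the rest of the chromosome, and its part in these calls was not tested. The window's median log2 fold was 0.27, against 0.17 for the rest of the chromosome. By library, the window's median deviation in log2 CPM from the mean over the 18 tumours was -0.002, 0.33 and 0.26 in R245W tumours and -0.31 to 0.06 in R270H tumours, so R245W tumour 1 lay within the R270H range. Within 10 Mb of Trp53 on chromosome 11, 6 of 396 tested genes were called (1.52%). Promoters were taken as 250 bases before to 50 after the RefSeq start, for protein-coding genes that had one. These were 71 of 87 genes called higher, 62 of 77 called lower and 11673 of 15050 tested. Among them, the letters GGGCGG were present on either strand in 63.4, 71.0 and 61.1%. The letters CCAAT were present in 39.4, 46.8 and 38.3%.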

How the data were processed

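Bulk RNA was measured in 18 tumours and 2 cell line samples, and the cell lines were not used here. The authors deposited whole-number counts per gene. Per the submitters' processing notes, reads were aligned to GRCm38 with STAR 2.6.0b, and DESeq2 was used by the authors. The counter, annotation and strand setting are not given in the sources used here. Of 49585 gene IDs, 49326 matched GENCODE M21.

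Counts as deposited were fitted with edgeR 4.0.16 (R 4.3.3) over the 18 tumours, with 1 coefficient for each genotype, leaving 14 residual degrees of freedom, filterByExpr (minimum count 10), TMM scaling and quasi-likelihood tests of R245W against R270H. P-values were Benjamini-Hochberg adjusted over 20616 genes, with a threshold of 0.05. Standard errors are the log2 fold over the root of F. The procedure was tested on simulated data. Libraries are taken as separate tumours, though the labels do not state that each came from another mouse, and replicate numbers follow accession order. Depth of 20650178 to 26757406 counts puts 3 counts at 0.123 to 0.141 CPM in the 8 libraries; intervals cover counting error only.

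Members and gene lists were chosen with earlier results of these data known. Genes named from the whole table passed the threshold with a mean of at least 1 CPM, no overlap and a proper gene name: the 12 highest and 12 lowest log2 folds and the 5 lowest p-values in each direction. Also named are Trp53, Cdkn1a, Mdm2, called list members and called neighbours. The called neighbour of Hist4h4, not given above, was Wbp11 (log2 fold 0.89). For lists with no call the rule took the 2 members of lowest p, and only some of these are given here. Of 676 list entries, 673 matched. Copies were found with blastn at 95% identity over 50% of the pseudogene; relatives of called pseudogenes at 90%. The alternatives were DESeq2 1.42.0, limma 3.58.1 voom, other scalings and filters, the 8 libraries alone, title style as a covariate, GC trend removal and leaving out each library.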

Additional observations from a re-analysis of the deposited data

Results flagged for a closer look

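Within the 5 R270H tumours, 8 of 138 sets of values held 1 library far from the others, judged by Dixon's ratio of the gap to the range on the log2 CPM scale, with a critical value of 0.71. Chance alone marks about 1 set in 20, and groups of 3 are too small for this ratio, so R245W tumours were not examined. Rpl34 was at 161 CPM in R270H tumour 2 and 256 to 288 CPM in the others (ratio 0.796). Jund in the same tumour was at 4.14 CPM against 6.99 to 8.20 CPM (0.766). Rnu12 was at 332.2 CPM in R270H tumour 3 against 199.6 to 213 CPM (0.876), and the summed adipocyte markers in that tumour were at 93.7 CPM against 186 to 234 CPM (0.753). B2m was at 698 CPM in R270H tumour 4 against 904 to 970 CPM (0.787), and its mitochondrially encoded genes summed to 11712 CPM against 7189 to 8238 CPM (0.721). Mmp8 was at 199.8 CPM in R270H tumour 5 against 3.33 to 10.7 CPM (0.718). Summed chondrocyte markers were at 1028 CPM in R270H tumour 1 against 2943 to 3715 CPM (0.819).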

How the results depend on the processing

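The count of 255 calls (156 higher, 99 lower) was 109 (76 and 33) with no filter on low counts, 1201 (577 and 624) by the DESeq2 Wald test, 1047 (555 and 492) by limma voom, and 8 (5 and 3) with title style as a covariate. With the 8 libraries alone it was 206, of which 99 were higher, and 109 genes were shared with the 255. Calls higher in R245W made up 61.2% of all calls, 48.0% by DESeq2, 48.1% with the 8 libraries alone and 74.9% with GC trends removed. Leaving out 1 library gave 48 to 411 calls, 39 to 230 higher and 9 to 181 lower. Of the 255 genes, 24 were called in all 18 such fits and 5 under every alternative run as well: Rpl3-ps1, Gm6969, Ndufs5, Gm10020 and G530011O06Rik, of which those not named above were chosen after their values were seen. Rn7s6 reversed to a log2 fold of 0.72 with title style as a covariate; the cause was not tested. Trp53 kept its sign and stayed short of the threshold, with log2 folds of 0.69 to 1.01 and edgeR adjusted p of 0.0884 to 0.29 when 1 library was left out. No paired analysis was possible because the labels give no replicate numbers shared between the groups.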
